A study of Canis lupus familiaris with 6 samples.

Results

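Eph receptors and ephrins were examined in RasV12 cells that had grown either alone or among normal cells. Of the 10 genes considered (EPHA1, EPHA2, EPHA4, EPHB2, EPHB4, EFNA1, EFNA4, EFNA5, EFNB1 and EFNB2), 9 were found by the gene name the array gives, with 12 of its 43603 probes. The probe of EFNA5 carries the name LOC608458 and was found through its RefSeq gene number, which made 13 probes. EPHA1, EPHA2 and EFNB1 were lower in RasV12 cells from mixed culture, at 60.9% to 69.3% of their signal alone, and no probe of the 10 genes was higher past the threshold. EFNB1 passed the threshold at 1 of its 2 probes. All 3 calls were lost without alone replicate 2 or 3 or mixed replicate 2 or 3. The 3 probes of EFNA1, a ligand of EPHA2, read 1.18 to 1.21 times as high in mixed culture without passing the threshold, and 4 of the 10 genes gave too little signal to be compared.

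The RasV12 cells derive from MDCK (Madin-Darby canine kidney), a dog epithelial line, and carry a construct (pTR GFP-RasV12) that makes GFP-tagged constitutively active Ras under tetracycline. All 6 samples were grown on collagen-coated dishes, given tetracycline for 24 h and sorted for GFP, 3 from cultures of RasV12 cells alone and 3 from mixed cultures with normal MDCK cells, and each was hybridised to 1 single-colour Agilent canine array. The source names in the labels and the paper give the cells with RasV12 only, whereas the extraction protocol describes cells with a β-catenin mutant. Mixed replicates 1 and 3 are labelled with 10 MDCK cells per RasV12 cell and mixed replicate 2 with 100, whereas the methods give the ratio of 10 for all. The RasV12 cells are one engineered line and the labels do not say whether the replicates were separate cultures, so p-values measure the spread between these samples, which may be technical. The arrays of RasV12 cells alone lay on one slide and those of mixed culture on another, so the effect of the slide and that of the culture cannot be told apart.

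Eph receptors form the largest family of receptor tyrosine kinases, and their ligands, the ephrins, sit on the membrane of neighbouring cells. A-type ephrins are held by a lipid anchor and mostly bind EPHA receptors, whereas B-type ephrins span the membrane and mostly bind EPHB receptors. Contact between the cells signals into the receptor-bearing cell (forward signalling) and into the ephrin-bearing cell (reverse signalling), and usually leads to repulsion or to the sorting of the cells from each other. In MDCK monolayers, contact of EPHA2 on Ras-transformed cells with ephrin-A on normal neighbours is known to make the transformed cells contract and separate.

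A probe each of EPHA1, EPHA2, EPHB2, EFNA1 and EFNB1 is printed here, since each signal reports only these 60 bases of its transcript. For EFNB1 this is not the probe past the threshold, which lies at base 2295. For EFNA1 it is the dimmest of the 3 probes. Sequences are from the array's own annotation, written 5′ to 3′, and positions are in canFam3. None of the 13 probes shares a run of 20 bases with another probe of the array, and the longest run shared by any pair of the family's 25 probes is 13 bases.

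EPHA1 (chr16:6303730-6303789, plus strand): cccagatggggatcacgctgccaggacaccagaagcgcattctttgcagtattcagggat
EPHA2 (chr2:81553520-81553675, plus strand): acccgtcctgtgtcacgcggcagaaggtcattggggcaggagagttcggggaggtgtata
EPHB2 (chr2:76428308-76428868, minus strand): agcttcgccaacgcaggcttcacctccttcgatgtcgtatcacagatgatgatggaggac
EFNA1, base 477 (chr7:42374001-42374220, minus strand): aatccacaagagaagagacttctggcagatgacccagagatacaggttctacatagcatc
EFNB1, base 382 (chrX:53302076-53302924, plus strand): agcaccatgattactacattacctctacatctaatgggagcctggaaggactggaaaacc

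The genomic interval of the EPHA1 probe is as long as the probe. Those of the other 4 span 156 to 849 bases, so these probes join sequence from separate parts of the genome and match the spliced transcript. Where a gene has several probes, each is named here by the transcript base the array's annotation gives for it. EFNA1 has 2 further probes on chromosome 7, at bases 826 (42373652 to 42373711) and 1252 (42373226 to 42373285), and EFNB1 has 1 at base 2295 on chromosome X (53305142 to 53305201). The probes of EFNA1, EFNA3 and EFNA4 lie close together on chromosome 7, with 36.2 kb between the starts of the first pair and 18.4 kb between those of the second. EPHA1 and EPHB6 lie 402.6 kb apart on chromosome 16.

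Signals are given relative to the 75th percentile of their array, so that a relative signal of 1 equals that percentile, and differences are log2 values of mixed culture minus culture alone with their standard error (SE). They were tested with limma over the 26535 probes that, in 1 group or both, exceeded background clearly on all arrays (the scanner software's mark "well above background"), adjusted by Benjamini-Hochberg, two-sided, at a threshold of 0.05. Past this threshold were 2978 probes (11.2%), of which 1519 (5.72%) were lower and 1459 (5.5%) higher in mixed culture, and 9866 probes (37.2%) had groups without overlap. Among the 9 probes tested here, from 6 genes, 3 were lower and 0 were higher past the threshold with limma. At an unadjusted p under 0.05, 4 were lower and 2 were higher, where 8342 of all 26535 tested probes had such a p in either direction. For 5 of these 9 the groups had no overlap. The median difference was -0.29 over these 9 probes and -0.004 over all tested probes. All 9 were well above background on all 6 arrays.

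**Figure D1:**
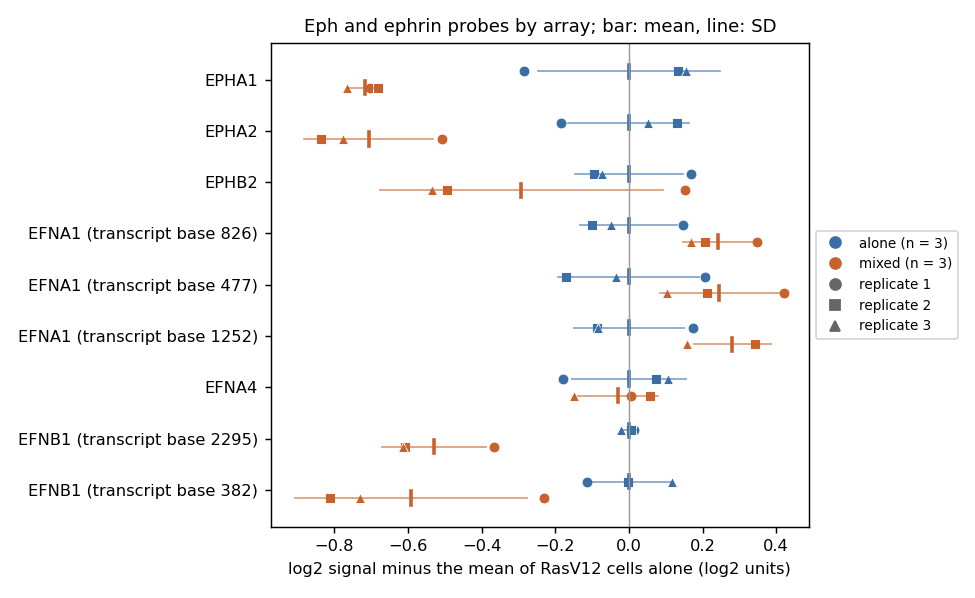
Log2 signal of each tested Eph and ephrin probe on each array, minus the mean of RasV12 cells alone (horizontal axis, log2 units), with 1 row per probe; blue marks are cultures alone and orange marks mixed cultures (n = 3 each), the shape gives the replicate number, the upright bar the mean and the line the SD. The mixed arrays of EPHA1, EPHA2 and both EFNB1 probes lie to the left of those alone, and mixed replicate 1 stands nearest to them for EPHA2, EPHB2 and both EFNB1 probes.

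EPHA2, the A-type receptor with the most studied role in epithelial and transformed cells, gave relative signals of 0.735, 0.914 and 0.866 in RasV12 cells alone and of 0.587, 0.468 and 0.488 in mixed culture. All 3 mixed arrays lay below all 3 arrays alone, and the highest of them was replicate 1. The means were 0.838 ± 0.0928 and 0.514 ± 0.0640 (SD, n = 3 each), which put mixed culture at 61.3% of the level alone. The log2 difference was -0.71 (SE 0.12, 95% interval -1.004 to -0.41, limma adjusted p = 0.0242). Since sorted populations were measured in bulk, fewer cells with the transcript and less of it per cell cannot be told apart.

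EPHA1, the receptor after which the family was named, gave relative signals of 3.79, 5.07 and 5.15 alone and of 2.84, 2.89 and 2.73 in mixed culture. The mixed arrays were close together and all below the arrays alone, among which replicate 1 was the lowest. Its mean was 4.67 ± 0.761 alone and 2.82 ± 0.0837 in mixed culture (SD, n = 3 each), or 60.9% of the level alone. The log2 difference was -0.72 (SE 0.13, 95% interval -1.02 to -0.41, limma adjusted p = 0.0251).

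Without mixed replicate 2, the culture labelled with the other cell ratio, the log2 differences of EPHA1 and EPHA2 were -0.73 (limma adjusted p = 0.0952) and -0.64 (adjusted p = 0.0956). The sizes stayed near those over all arrays and the calls were lost. Leaving out alone replicate 2 or 3 or mixed replicate 3 also lost both calls, with adjusted p between 0.0966 and 0.106, and without mixed replicate 1 the adjusted p of EPHA1 was 0.0576. In the same 4 fits that lost both calls, the number of probes past the threshold on the whole array fell from 2978 to between 7 and 24. Without alone replicate 1 both receptors were past it, with differences of -0.86 and -0.80.

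EPHA4, an A-type receptor that binds ephrins of both types, was dim. Its processed intensities were 8.83, 17.12 and 17.05 alone and 7.93, 11.37 and 11.62 in mixed culture, where the lowest intensity well above background lay between 9.15 and 14.6 on the 6 arrays. It was well above background on 2 of 3 arrays alone and on 0 of 3 mixed arrays, so it was not tested and no fold is given.

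Among B-type receptors, EPHB2, a regulator of cell position in epithelia, gave relative signals of 1.61, 1.34 and 1.36 alone and of 1.59, 1.02 and 0.987 in mixed culture. Mixed replicates 2 and 3 lay below every array alone, whereas mixed replicate 1 lay within their range. The log2 difference was -0.29 (SE 0.19, 95% interval -0.76 to 0.17, limma adjusted p = 0.351), an interval that holds falls as large as those of EPHA1 and EPHA2 as well as no change. Without mixed replicate 1, 2 or 3 the difference was -0.51, -0.19 or -0.17 (limma adjusted p = 0.053, 0.634 or 0.66).

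EPHB4, the receptor of ephrin-B2 in the separation of arteries from veins, gave intensities of 11.84, 14.89 and 11.04 alone and of 14.37, 7.5 and 5.02 in mixed culture. It was well above background on 2 arrays alone and on 0 mixed arrays, and the groups overlapped.

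**Figure D2:**
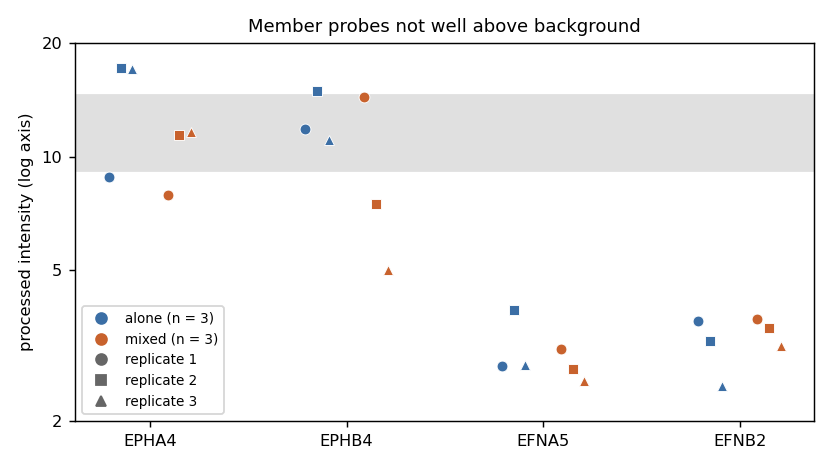
Processed intensity (vertical axis, log scale) of the 4 genes with no group in which all arrays were well above background, for RasV12 cells alone (blue) and in mixed culture (orange), with 1 mark per array; the grey band spans the lowest intensity well above background over the 6 arrays, 9.15 to 14.6. EPHA4 and EPHB4 straddle the band, while EFNA5 and EFNB2 lie below it on all 6 arrays.

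EFNA1, the ligand most often paired with EPHA2, was measured by 3 probes. The probe at base 1252 gave relative signals of 10.7, 8.97 and 8.98 alone and of 12.1, 12.1 and 10.6 in mixed culture, the one at base 826 gave 1.71, 1.44 and 1.5 against 1.97, 1.79 and 1.74, and the one at base 477 gave 0.390, 0.300 and 0.329 against 0.453, 0.391 and 0.363. In each of the 3, replicate 1 was the highest array alone. The groups did not overlap at base 826, and at the other two positions the range of mixed culture reached into that of culture alone. The log2 differences were 0.28 (SE 0.10, 95% interval 0.03 to 0.53, limma adjusted p = 0.122), 0.24 (SE 0.096, interval 0.01 to 0.47, adjusted p = 0.143) and 0.25 (SE 0.13, interval -0.06 to 0.55, adjusted p = 0.242) at bases 1252, 826 and 477, and none passed the threshold. The probes read different bases of one transcript and are not replicates of the culture. Without alone replicate 1 the first and second were past the threshold, at 0.37 (adjusted p = 0.0314) and 0.32 (adjusted p = 0.0411), and with normexp background correction the first was, at 0.33 (limma adjusted p = 0.0499). Scaling to the spiked-in control RNA brought the 3 differences to between 0.08 and 0.12. That scaling lowered all probes alike and moved the median of all tested probes to -0.168.

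EFNA4, a further A-type ligand, gave relative signals of 0.0597, 0.0711 and 0.0727 alone and of 0.0678, 0.0704 and 0.0609 in mixed culture. The groups overlapped throughout, and the log2 difference was -0.03 (SE 0.10, 95% interval -0.28 to 0.22, limma adjusted p = 0.879). EFNA5, a ligand known for guiding growing axons, lay below the well-above-background level on all 6 arrays, with intensities of 2.55 to 3.93.

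EFNB1, a B-type ephrin that transmits reverse signals through its intracellular tail, was measured by 2 probes. At base 2295 the relative signals were 10.8, 10.8 and 10.6 alone and 8.32, 7.04 and 7.01 in mixed culture. All mixed arrays were below all arrays alone, with replicate 1 the highest of the mixed arrays. The means of 10.7 ± 0.139 and 7.46 ± 0.749 (SD, n = 3 each) put mixed culture at 69.3% of the level alone, and the log2 difference was -0.53 (SE 0.089, 95% interval -0.74 to -0.32, limma adjusted p = 0.0227).

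At base 382 the relative signals of EFNB1 were 0.538, 0.581 and 0.631 alone and 0.496, 0.332 and 0.351 in mixed culture. The groups again did not overlap, and mixed replicate 1 again stood nearest to the arrays alone. The log2 difference was -0.59 (SE 0.16, 95% interval -0.98 to -0.20), which with a limma adjusted p of 0.0643 did not pass the threshold. It passed without mixed replicate 1, at -0.77 (adjusted p = 0.0229), and with normexp background correction, at -0.47 (adjusted p = 0.0465).

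Without mixed replicate 2, the base 2295 probe differed by -0.49 (limma adjusted p = 0.095). Without alone replicate 2 or 3 or mixed replicate 3 its adjusted p lay between 0.0922 and 0.102. EFNB2, the ligand of EPHB4 on arteries, was not well above background on any array, with intensities of 2.47 to 3.71.

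**Figure D3:**
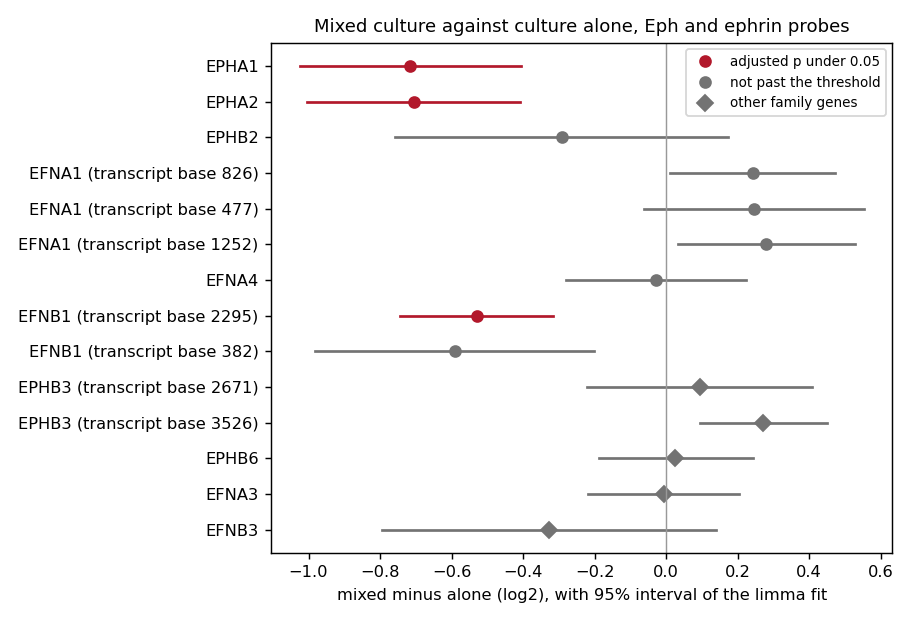
Log2 difference of mixed culture minus culture alone (horizontal axis) with its 95% interval from limma for every tested probe of the Eph and ephrin family, 1 row per probe; circles are the genes described first, diamonds the other family genes, and red marks an adjusted p under 0.05. EPHA1, EPHA2 and EFNB1 at base 2295 are the red rows, at -0.72, -0.71 and -0.53, and the 3 EFNA1 rows lie to the right of 0 at 0.24 to 0.28.

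The other genes of the family were given for comparison, 12 in all, of which EPHA8, EPHA10 and EFNA2 were matched to no probe. EPHA3, EPHA5, EPHA6, EPHA7 and EPHB1 were well above background on no array. The remaining 4 genes had 5 tested probes, of which 0 passed the threshold with limma and 1 had an unadjusted p under 0.05, against 8342 of all 26535 tested probes. That probe, at base 3526 of the receptor EPHB3, gave relative signals of 9.34, 10.0 and 9.04 alone and of 11.3, 11.9 and 11.1 in mixed culture. Its groups did not overlap, and the log2 difference was 0.27 (SE 0.074, 95% interval 0.09 to 0.45, adjusted p = 0.063), with adjusted p of 0.0441 after quantile normalization and 0.027 after normexp background correction, while spike-in scaling brought the difference to 0.11 (adjusted p = 0.603). The dimmer EPHB3 probe at base 2671 differed by 0.09 (adjusted p = 0.665), with overlapping groups. EPHB6, a receptor without kinase activity, differed by 0.03 (SE 0.090, adjusted p = 0.87) and the ligand EFNA3 by -0.007 (SE 0.088, adjusted p = 0.965). For the ligand EFNB3 the relative signals were 0.0586, 0.0589 and 0.0509 alone and 0.0612, 0.0383 and 0.0380 in mixed culture, where replicates 2 and 3 were low and replicate 1 was the highest of all 6 arrays. Its difference was -0.33 (SE 0.19, adjusted p = 0.298). Without mixed replicate 1, 2 or 3 it was -0.56, -0.22 or -0.21 (limma adjusted p = 0.0394, 0.582 or 0.587), and with normexp background correction -0.08 (adjusted p = 0.53).

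How the measurements of EPHA1, EPHA2 and EFNB1 held under other treatments of the arrays was examined with 14 alternatives. Their differences were negative in all 14, ranging from -0.88 to -0.64 for EPHA1, from -0.87 to -0.58 for EPHA2 and from -0.69 to -0.49 for EFNB1 at base 2295. The sign was free to change only under quantile normalization, normexp background correction and spike-in scaling. Leaving out an array could not turn it, because the groups did not overlap. The remaining alternatives used the same log2 values and gave the same differences. They were past the threshold in 6, 7 and 8 of the 14. With the replicate number as a block, the adjusted p was 0.0389, 0.0495 and 0.0367.

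**Figure D4:**
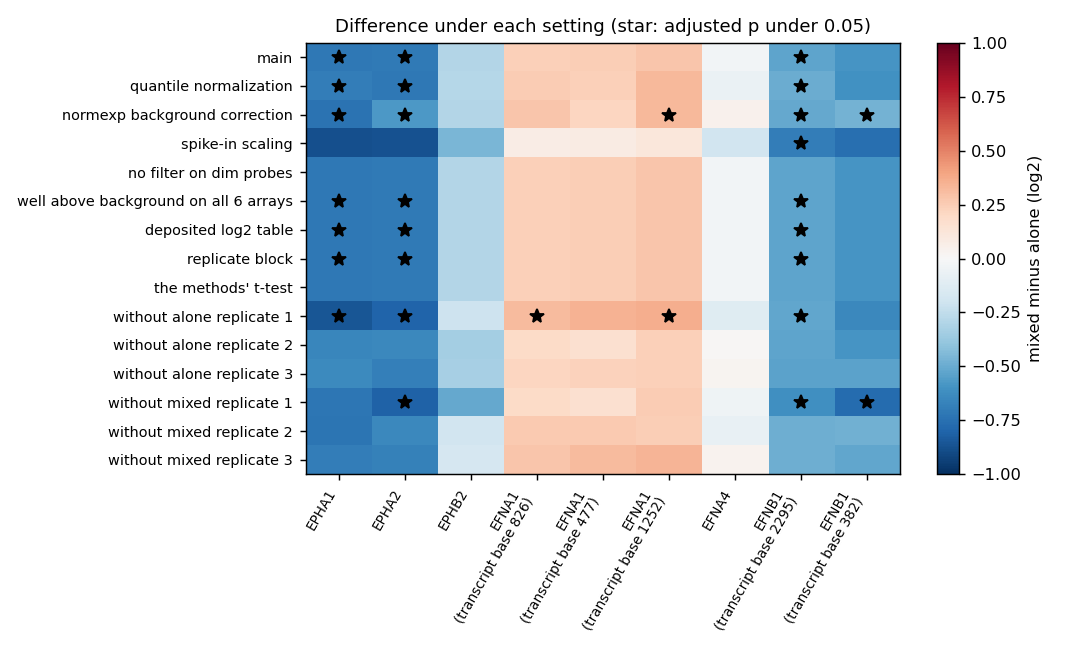
Log2 difference of mixed culture minus culture alone (colour, from blue for lower to red for higher) of each tested Eph and ephrin probe (columns) under the main treatment of the arrays and 14 alternatives (rows), with a star where the adjusted p was under 0.05. The columns of EPHA1, EPHA2 and EFNB1 are blue in every row, whereas the stars are absent in all columns without alone replicate 2 or 3 or mixed replicate 2 or 3. They are also absent in all columns with no filter on dim probes and with the methods' t-test.

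Eph receptors act through a set of downstream proteins, among them guanine nucleotide exchange factors, GTPase activating proteins and Src-family kinases. Of 30 genes of forward signalling, 28 had a probe and 25 were tested. Past the threshold, 3 of these genes had a higher probe and 0 a lower one, and the share of genes over the whole array was not computed. By probes, 7 of 50 were higher, 4 of them of CHN2, and 0 were lower, against 5.5% and 5.72% of all tested probes. The median difference over their 50 tested probes was -0.05, against -0.004 over all tested probes. CHN2 encodes β2-chimaerin, a GTPase activating protein that switches off Rac below Eph receptors, and it rose at all 4 of its probes. The probe at base 1877 gave relative signals of 1.26, 1.12 and 1.11 alone and of 2.55, 2.01 and 1.91 in mixed culture, a 1.83-fold higher level (log2 difference 0.88, SE 0.13, limma adjusted p = 0.0183). All mixed arrays lay above all arrays alone, and replicate 1 was the highest in both groups. The other 3 CHN2 probes differed by 0.90, 0.92 and 1.23 (adjusted p = 0.0217, 0.0154 and 0.0144). The last of these, at base 1455, was the dimmest, and with normexp background correction it differed by 0.45 (adjusted p = 0.00726). In the 4 fits without alone replicate 2 or 3 or mixed replicate 2 or 3, no CHN2 probe passed the threshold.

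ITSN2, an exchange factor for Cdc42 of the intersectin family, rose at 2 of its 3 probes. At base 1995 the relative signals were 1.86, 1.75 and 1.80 alone and 2.35, 2.25 and 2.34 in mixed culture, without overlap (log2 difference 0.36, SE 0.067, limma adjusted p = 0.0263). At bases 5428 and 2005 the differences were 0.32 (adjusted p = 0.0493) and 0.27 (adjusted p = 0.0637). The probes at bases 1995 and 2005 overlap in most of their bases (18690349 to 18690408 and 18690339 to 18690398 on chromosome 17), so they are nearly the same measurement. With the replicate number as a block, the probe at base 5428 was lost (limma adjusted p = 0.0578), as it was after quantile normalization (limma adjusted p = 0.0504). Scaling to the spiked-in control RNA brought the differences at bases 1995 and 5428 to 0.20 and 0.15, neither past the threshold (limma adjusted p = 0.271 and 0.495). YES1, a Src-family kinase, rose at base 1757 by 0.31 (limma adjusted p = 0.0463). This call was lost with the block (limma adjusted p = 0.0591) and after quantile normalization (limma adjusted p = 0.0824). The YES1 probe at base 4028 differed by 0.29 (adjusted p = 0.0825) and that at base 1449 was well above background on no array. Spike-in scaling brought the YES1 difference at base 1757 to 0.14 (adjusted p = 0.355). Of the fits without 1 array, only that without alone replicate 1 left the ITSN2 and YES1 probes past the threshold.

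Of 7 genes of reverse signalling, 5 had a probe and all 5 were tested, with a median of 0.09 over 9 probes. Past the threshold were 0 genes higher and 1 lower, through 1 of the 9 probes, where 5.72% of all tested probes were lower. The lower one was RGS3, which links B-type ephrins to G-protein signalling, and its probes disagreed. At base 1690 the relative signals were 0.0306, 0.0393 and 0.0322 alone and 0.0211, 0.0230 and 0.0192 in mixed culture. The mixed arrays were all lower and none was well above background. With the 75th-percentile scaling the log2 difference was -0.69 (limma adjusted p = 0.0243). A bound set from the lowest intensity well above background was 1.54-fold higher alone, and that bound was not tested. With normexp background correction this probe differed by -0.16 (adjusted p = 0.0992), a smaller difference than that bound, and it passed the threshold in 4 of 13 alternatives, of the fits that left out an array only in that without alone replicate 1. At bases 3294 and 2004, where all 6 arrays were well above background, RGS3 differed by -0.02 (adjusted p = 0.889) and -0.04 (adjusted p = 0.903).

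Shedding and turnover of Eph receptors and ephrins depend on metalloproteases, γ-secretase, ubiquitin ligases and phosphatases. Of 13 such genes, 12 had a probe and 9 were tested, and 0 of their 16 probes passed the threshold with limma. At an unadjusted p under 0.05, 3 probes were higher and 0 lower, against 8342 of all 26535 tested probes in either direction. The median difference was -0.01.

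**Figure D5:**
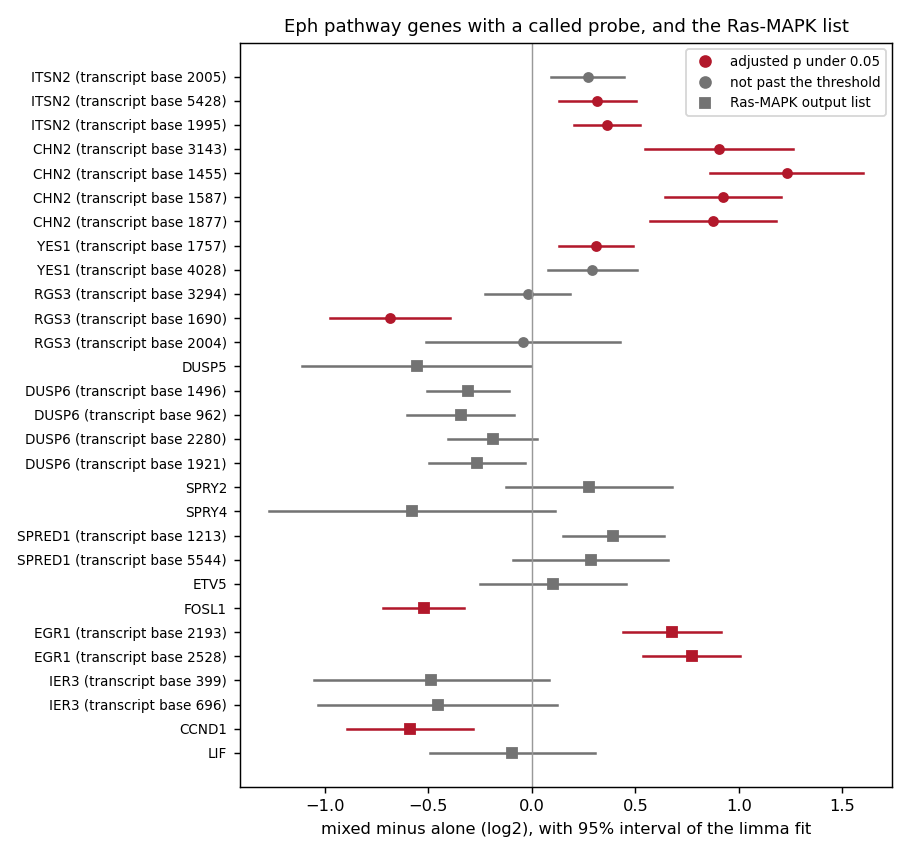
Log2 difference of mixed culture minus culture alone (horizontal axis) with its 95% interval from limma for all tested probes of the pathway genes with a probe past the threshold (circles) and of the Ras-MAPK output genes (squares), 1 row per probe; red marks an adjusted p under 0.05. The 4 CHN2 rows lie between 0.88 and 1.23, while RGS3 has 1 red row at -0.69 and 2 rows near 0.

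EPHA2 is a known target of the Ras-MAPK pathway, so genes that this pathway is known to switch on were read beside it. Of 15 such genes, 11 were tested with 17 probes, 4 of them of DUSP6. Past the threshold, 2 of the 17 were higher and 2 lower, against 5.5% and 5.72% of all tested probes. The median difference over the 17 probes was -0.26. The relative signals of these 17 probes summed to between 199 and 205 alone and to between 165 and 188 in mixed culture. Such sums are of unlogged signals, so the brightest probes weigh most in them. FOSL1, a subunit of the AP-1 transcription factor, fell by 0.52 on the log2 scale (limma adjusted p = 0.0193), with relative signals of 0.447, 0.513 and 0.453 alone and of 0.338, 0.317 and 0.327 in mixed culture. CCND1, the cyclin of the G1 phase, fell by 0.59 on the log2 scale (limma adjusted p = 0.0366, with 0.0633 with the replicate block and 0.0566 after quantile normalization). EGR1, an immediate early transcription factor, went the other way at both of its probes, by 0.68 and 0.77 (adjusted p = 0.0183 and 0.0157). With that block SPRED1, an inhibitor of the pathway, passed the threshold at 0.39 (adjusted p = 0.0491, against 0.0567 without it), as did the early response gene IER3 at both of its probes, at -0.49 and -0.45 (adjusted p = 0.0377 and 0.0409, against 0.215 and 0.246). FOSL1, CCND1 and EGR1 did not pass without alone replicate 2 or 3 or mixed replicate 2 or 3, nor CCND1 without mixed replicate 1. The other genes passed neither without the block nor with it, DUSP6, a phosphatase that acts on ERK, among them, with differences of -0.34 to -0.19 at its 4 probes. The part of the Ras-MAPK output, or of normal MDCK cells that passed the sort, in the levels of EPHA1, EPHA2 and EFNB1 was not tested.

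The label of a kidney epithelial line was checked against 6 markers. EPCAM, KRT18, CDH1, PAX8 and CDH16 were each well above background on all 6 arrays at 1 probe or more, and KRT8 was matched to no probe. None of their 9 tested probes passed the threshold with limma. At an unadjusted p under 0.05, 0 were higher and 2 were lower, against 8342 of all 26535 tested probes in either direction. Their relative signals summed to between 540 and 628 alone and to between 570 and 630 in mixed culture. Of 8 markers of leukocytes, endothelium and fibroblasts, PTPRC, CDH5 and COL3A1 were well above background on no array. The other 5, CD3E, CD68, PECAM1, COL1A1 and PDGFRB, had 6 tested probes, of which 5 were well above background on all 6 arrays. These 6 probes summed to between 2.33 and 2.53 alone and to between 2.54 and 2.65 in mixed culture, and none had an unadjusted p under 0.05.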

How the data were processed

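RNA of 6 samples was measured, 3 per group, with groups taken from the sample titles. For each array the authors deposited the output of Agilent's scanner software with an intensity per spot, corrected for background and detrended. The log2 table that the authors deposited lists 26529 probes, and its values are those signals as log2 with each array's 75th percentile subtracted, to within 0.077. The methods list an unpaired two-tailed t-test for a companion array comparison of cells with a β-catenin mutant, assign none to these arrays and describe no normalisation.

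Control spots and 6 to 12 outlier spots per array were left out, spots of a probe averaged, and log2 values taken minus each array's 75th percentile (592 to 700 units of intensity). On an array 60.8% to 66.4% of probes exceeded background clearly, and the number of arrays limits the precision. No probe described was saturated on any array. The cultures were compared by lmFit and eBayes of limma 3.58.1 (R 4.3.3), after the procedure had been tested on simulated data. A gene's probes were kept apart. Tables were read with Python 3.11.15 and pandas 2.3.3.

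The genes, pathway lists and tests were chosen with earlier results of these data known. Named are all 10 genes, the rest of the family, pathway genes with a probe past the threshold, and Ras-MAPK and marker genes beside results they bear on. A further kidney marker, beside the 6 given, is not reported here. No genome was used, so exons and untranslated regions were not assigned.

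Both groups share the replicate numbers 1 to 3, which are also positions on the slide. After removing group means, arrays with the same number correlated at 0.349, 0.162 and 0.296 over 26529 probes, each over 0.1, so the numbers were taken to pair the samples, and a fit with the replicate block was added as an alternative. Different numbers correlated at -0.329 to 0.238. The highest of these, alone replicate 2 with mixed replicate 3, exceeded the 0.162 of the shared number 2, so the pairing is not settled. A pairing of cultures and an effect of the slide position cannot be told apart. No slide block could be fitted with 1 group per slide. Further alternatives were quantile normalization, normexp background correction, spike-in scaling, no filter, a filter over all 6 arrays, the deposited table, the methods' t-test and leaving out each array.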

Additional observations from a re-analysis of the deposited data

How the results depend on the processing

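Single arrays set the counts most. Over fits that each left out 1 array, between 0 and 5 Eph and ephrin probes passed the threshold against 3 over all arrays, between 7 and 7335 of all probes against 2978, and between 0 and 14 pathway genes against 4. Of all probes, 24, 7, 9 and 12 passed without alone replicate 2, alone replicate 3, mixed replicate 2 and mixed replicate 3, where 0 Eph and ephrin probes and 0 pathway genes passed (4 or 5 Eph and ephrin probes at an unadjusted p under 0.05, against 5812 to 6112 of all probes), and 7335, 5 and 14 without alone replicate 1. Normexp background correction gave 5 Eph and ephrin probes (1 higher, 4 lower) and 9 pathway genes, with 3973 of all probes, 1972 higher and 2001 lower. Spike-in scaling gave 1 and 2, with 954 of all probes, 283 higher and 671 lower against 1459 and 1519. It moved the median of all probes to -0.168, as the 7 spike-in probes used read 0.103 to 0.232 higher on the mixed arrays, and relative to that median EPHA1 and EPHA2 at -0.88 and -0.87 lay near their main values. The differences of all probes moved by the same amount, so those of EFNA1, EPHB3, ITSN2 and YES1 also lay near their main values relative to that median. Testing all 43603 probes gave 0 and 0, with 12 of all probes, and the methods' t-test 0 and 1, with 826 (4 Eph and ephrin probes at an unadjusted p under 0.05 in each, against 7821 and 7315 of all probes). Quantile normalization, the filter over all 6 arrays, the deposited table and the replicate block each left the 3 Eph and ephrin probes past the threshold. Quantile normalization kept 4 pathway genes past it, with YES1 lost and EPHB3 gained. The block gave 2825 of all probes and, beyond the ITSN2, YES1, CCND1, SPRED1 and IER3 probes given above, changed no call of a probe described; it kept 4 pathway genes past the threshold, with YES1 lost and NGEF gained (adjusted p = 0.0446, against 0.251).

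Of 531 values of single probes under the alternatives, 387 kept direction and side of the threshold, 109 fell below it, 18 rose past it and 17 changed sign, all of the last small differences. Leaving out 1 array at a time, EFNA4 ranged from -0.118 to 0.032, EFNA3 from -0.086 to 0.033, EPHB6 from -0.046 to 0.094, and RGS3 from -0.073 to 0.025 at base 3294 and from -0.15 to 0.16 at base 2004. Under normexp EFNA4 became 0.04, EFNA3 0.021 and RGS3 0.021 and 0.035 at those bases, and under spike-in scaling EPHB6 became -0.138 and EPHB3 at base 2671 -0.071. Beyond the constructions named, the cause of these moves was not tested.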
